A study of Mus musculus with 16 samples.

Results

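Heat shock factors are transcription factors that gather on repeated GAA units in DNA, called heat shock elements, and switch on chaperone genes when unfolded proteins build up. Chaperones bind unfolded or unstable proteins, help them fold, keep them from clumping, or hand them over for breakdown. Some chaperone genes are active in every growing cell, while others are nearly silent until stress. The genes described here are a set of 10 chosen by name: the factors Hsf1 and Hsf2, the Hsp70 genes Hspa1a, Hspa1b and Hspa8, the Hsp110 gene Hsph1, the small heat shock protein gene Hspb1, the Hsp90 genes Hsp90aa1 and Hsp90ab1, and the J-protein gene Dnajb1. Symbols were matched to the Ensembl IDs of the count table, and all 10 were found among its 22375 genes. All 10 were also among the 15758 genes that passed the filter on low counts and were tested.

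The study asked how Cfp1, a subunit of the Set1 complex that methylates histone H3 at lysine 4, affects this methylation in regulated genes. Its model was the response of mouse embryonic stem (ES) cells to DNA damage, and it also tested how transcription responded without Cfp1. Total RNA depleted of ribosomal RNA was sequenced strand by strand from 4 groups, each with 2 biological replicates that were run as 2 technical replicates, giving 16 samples. The groups were E14Tg2a cells (wild type, WT) and Cfp1 -/- cells, both of strain 129/OLA, each untreated or given doxorubicin for 6 h. Doxorubicin is an anthracycline that poisons topoisomerase II and breaks DNA. The treatment protocol states a dose of 1 μM, whereas the treatment label of the same samples reads 1 mM, and the protocol's dose is taken here. Cells of all groups grew on gelatin with serum and leukaemia inhibitory factor. Each genotype is 1 cell line, so effects of the deletion and other differences between the lines cannot be told apart. The sources do not say what separated the biological replicates, so p-values measure the spread between these samples, which may in part be technical.

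Technical replicates were summed, which left 8 libraries with between 14880589 and 29422711 counts in genes. The 4 libraries of doxorubicin-treated cells were the shallowest, with 18551086 counts at most, against 23383421 or more in untreated cells. Technical pairs were compared by chi-square, which per degree of freedom is near 1 when only sampling separates them. It lay between 0.998 and 1.05 in 6 libraries. Replicate 1 of treated WT cells (9.61) and replicate 1 of treated Cfp1 -/- cells (42.9) exceeded this. Their members' counts were affected unequally: in treated WT replicate 1 the second run held 0.454 of the first run's counts for Hsf2 and 0.766 for Hspb1, against 0.58 for all genes. The members' tests and the counts of called genes were therefore also computed without the second runs of both libraries, an alternative chosen after seeing the data, which is named where it changed a call. Levels, ratios, shares, marker sums, likeness and the other lists were not.

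The deleted gene was examined first. Cxxc1, which codes for Cfp1, had 1199 and 1164 normalized counts in the untreated WT replicates and 807 and 876 in the treated ones. Its counts in Cfp1 -/- cells were 3.71 and 2.53 without doxorubicin and 5.11 and 0.964 with it. The labels of genotype and the counts of Cxxc1 therefore went together in all 8 libraries. Cdkn1a, a p53 target that codes for a cell cycle inhibitor, had 131 and 226 normalized counts in untreated WT cells against 1805 and 1655 in treated ones. Mutant cells had 338 and 263 untreated against 1294 and 1165 treated, so that treated libraries were above untreated ones in both lines. Mdm2, whose product degrades p53, went from 4692 and 4794 to 32820 and 26310 in WT cells and from 5962 and 4524 to 27090 and 24880 in mutant cells.

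The ES cell label was checked against marker lists. Pou5f1, the core pluripotency factor, was abundant in every library, with 16750 and 13810 normalized counts in untreated WT cells, 12070 and 10730 in treated WT cells, 9207 and 9918 in untreated mutant cells, and 7322 and 7043 in treated mutant cells. All 11 ES cell markers found were above 3 counts in at least 1 library, and L1td1 had the highest mean over all 8 libraries. Summed over the list, ES cell markers reached 140900 and 107900 normalized counts in untreated WT cells and 52950 and 39480 after doxorubicin. In mutant cells the sums were 109400 and 102500 untreated and 44480 and 31860 treated, so the list was lower in all treated libraries. Fibroblast feeder markers (10 found, Lum at 3 counts or fewer throughout, Pdgfra with the highest mean over all 8 libraries but below Col1a1 in WT cells) had sums of 357 and 344 in untreated WT cells, 795 and 625 in treated WT cells, 274 and 319 in untreated mutant cells, and 813 and 852 in treated mutant cells. Primitive endoderm markers had sums of 197 and 263 in untreated WT cells, 383 and 373 in treated WT cells, 542 and 370 in untreated mutant cells, and 698 and 587 in treated mutant cells. Pdgfra is in this list too, and had 22.9 and 32.3, 238 and 193, 125 and 183, and 451 and 446 normalized counts in the same order. Sums of the trophoblast list lay between 158 and 376, and those of mesoderm between 144 and 416. Markers of primed ectoderm and neural cells were higher, at 18210 and 29370 in untreated WT cells and 5485 and 11860 in treated ones, most of it Dnmt3b, which ES cells also express. The mutant sums of that list were 11470 and 14730 untreated and 5664 and 5210 treated. In these bulk libraries, fewer cells of a type and less RNA per cell cannot be told apart. The part that the fall in ES cell markers has in the results below was not tested.

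Levels were compared between genes per kb of exon. In untreated WT cells Hsp90ab1 had the highest level of 15752 genes with a known exon length, with a mean of 69140 normalized counts per kb ± 2210 (SD, n = 2). Hsp90aa1 followed with 29700 ± 2130 and stood at place 12 of all genes, and Hspa8 had 21860 ± 748 at place 19. A step of more than 10-fold separated these 3 from the next member. Hspb1 had 1626 ± 362 normalized counts per kb, Hsph1 1359 ± 116, Hsf2 933 ± 12.3 and Dnajb1 363 ± 2. Hspb1 and Hsph1 overlapped in their replicates, and their order could not be settled. At the low end Hsf1 had 124 ± 1.61, Hspa1b 59.7 ± 8.63 and Hspa1a 20.8 ± 4.24 normalized counts per kb, where the median over all genes was 92.3. Counts of genes with repeated sequence (Hspa1a, Hspa1b, Hspa8, Hspb1 and Hsp90aa1, see their repeated windows below) may lack reads that map to several places, so their places are uncertain.

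In treated WT cells Hsp90ab1 remained at place 1, Hspa8 was at place 50 with 9441 ± 1350 normalized counts per kb, and Hspa1a was at place 5385 with 212 ± 3.39. The order of the 3 lowest members had changed there, with Hspa1a above Hsf1 (160 ± 4.49) and Hspa1b (142 ± 5.04). In untreated mutant cells Hsp90ab1 was at place 4 with 29140 ± 1670 normalized counts per kb, and Hspa8 (16000 ± 1330) stood above Hsp90aa1 (11810 ± 827). Hsph1 had 453 ± 109 there, below Hsf2 (811 ± 47.5). In treated mutant cells Hsp90ab1 had 25170 ± 196 normalized counts per kb, and the replicates of Hspa8 (10610 ± 2010) and Hsp90aa1 (9525 ± 2560) overlapped. Hsf1 (136 ± 0.715), Hspa1b (125 ± 16.7) and Hspa1a (119 ± 16.6) were close there, and the replicates of Hspa1b overlapped with those of both neighbours. All 10 genes together took 1.72% and 1.71% of the counts in untreated WT cells, 1.52% and 1.54% in treated WT cells, 0.942% and 0.999% in untreated mutant cells, and 0.971% and 0.839% in treated mutant cells.

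**Figure D1:**
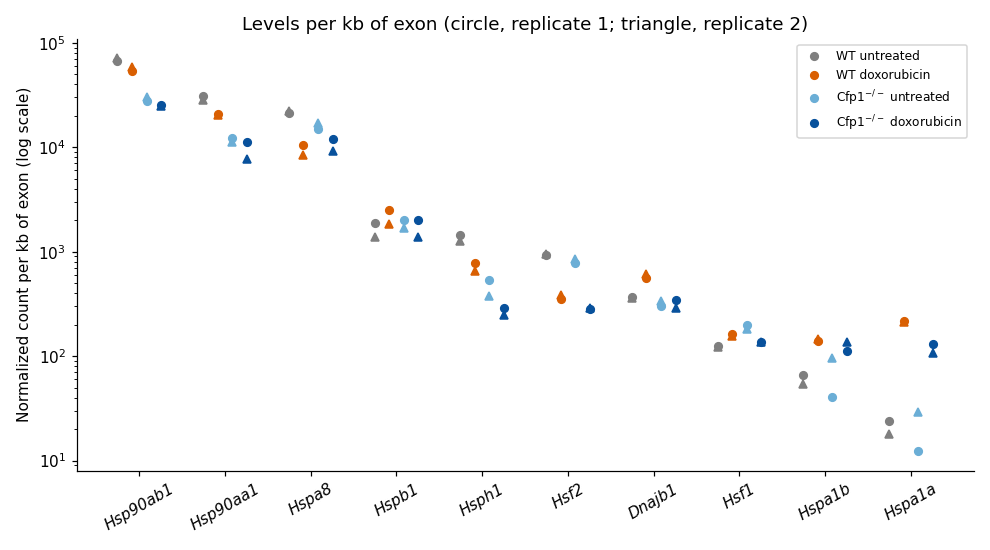
Normalized counts per kb of exon (vertical axis, log scale) of the 10 genes (horizontal axis, ordered by their mean in untreated WT cells), with 1 point per library, a circle for replicate 1 and a triangle for replicate 2. Hsp90ab1, Hsp90aa1 and Hspa8 lie above the others in all 4 groups, and Hspa1a covers the widest span, from 12.4 to 215 normalized counts per kb.

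Comparison of treated with untreated cells asks which members respond to doxorubicin. By edgeR's quasi-likelihood test, 3 of the 10 genes were higher and 4 lower in treated WT cells at an adjusted p under 0.05. Of all genes tested, 26.5% were higher and 21.8% lower, which sets the scale for these counts. In Cfp1 -/- cells 2 members were higher and 3 lower, where 27.8% of all genes were higher and 21% lower. The study's own rule adds limits of 2.5 on the fold change and of 200 on the mean normalized count. Applied here to edgeR's fold changes, it counted 1 member higher in WT cells (5.1% of all genes) and 0 lower (2.8%). Hsf2 was near its limit in WT cells, with a 2.44-fold decrease in edgeR, a log2 fold change of -1.33 with DESeq2's size factors, and a 2.52-fold decrease of mean normalized counts, the last 2 past the limit. By that rule 1 member was higher (5.38%) and 1 was lower (2.23%) in mutant cells. The median log2 fold change of the 10 genes was 0.08 in WT cells and -0.22 in mutant cells, beside 0.06 and 0.01 over all genes tested.

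The difference of the responses between the lines was tested directly in edgeR. Of all genes tested, 0.235% (37 genes) had a called response difference, and of the 10 members 0 did. Counted without adjustment at 0.05, the response difference took in 3 members, Hsf1, Hspa8 and Dnajb1, and 1671 of all genes. DESeq2's Wald test called 221 genes and also 0 members, and edgeR with the replicate numbers as a replicate block called 243 genes and 0 members. The responses of both lines and the genotype comparisons are not independent, since each group of libraries serves in several comparisons. Their values are therefore set side by side for each gene.

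Comparison of Cfp1 -/- with WT cells asks what the lines differ in at the same treatment. In untreated cells 1 member was higher in the mutant and 3 were lower, where 17.9% of all genes were higher and 16.1% lower. With doxorubicin 0 members were higher (15.1% of all genes) and 4 were lower (10.8% of all genes). With the replicate block 7 members were lower there, Hsf2, Hspa1a and Hspb1 in addition. Genes called in either direction then numbered 5795 instead of 4074. They were not split by direction, so the 7 members have no like share beside them. Hsph1, Hsp90aa1 and Hsp90ab1 were lower in the mutant in both comparisons. The median log2 fold change of the members was -0.17 untreated and -0.58 with doxorubicin, beside 0.01 and 0.02 over all genes tested.

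**Figure D2:**
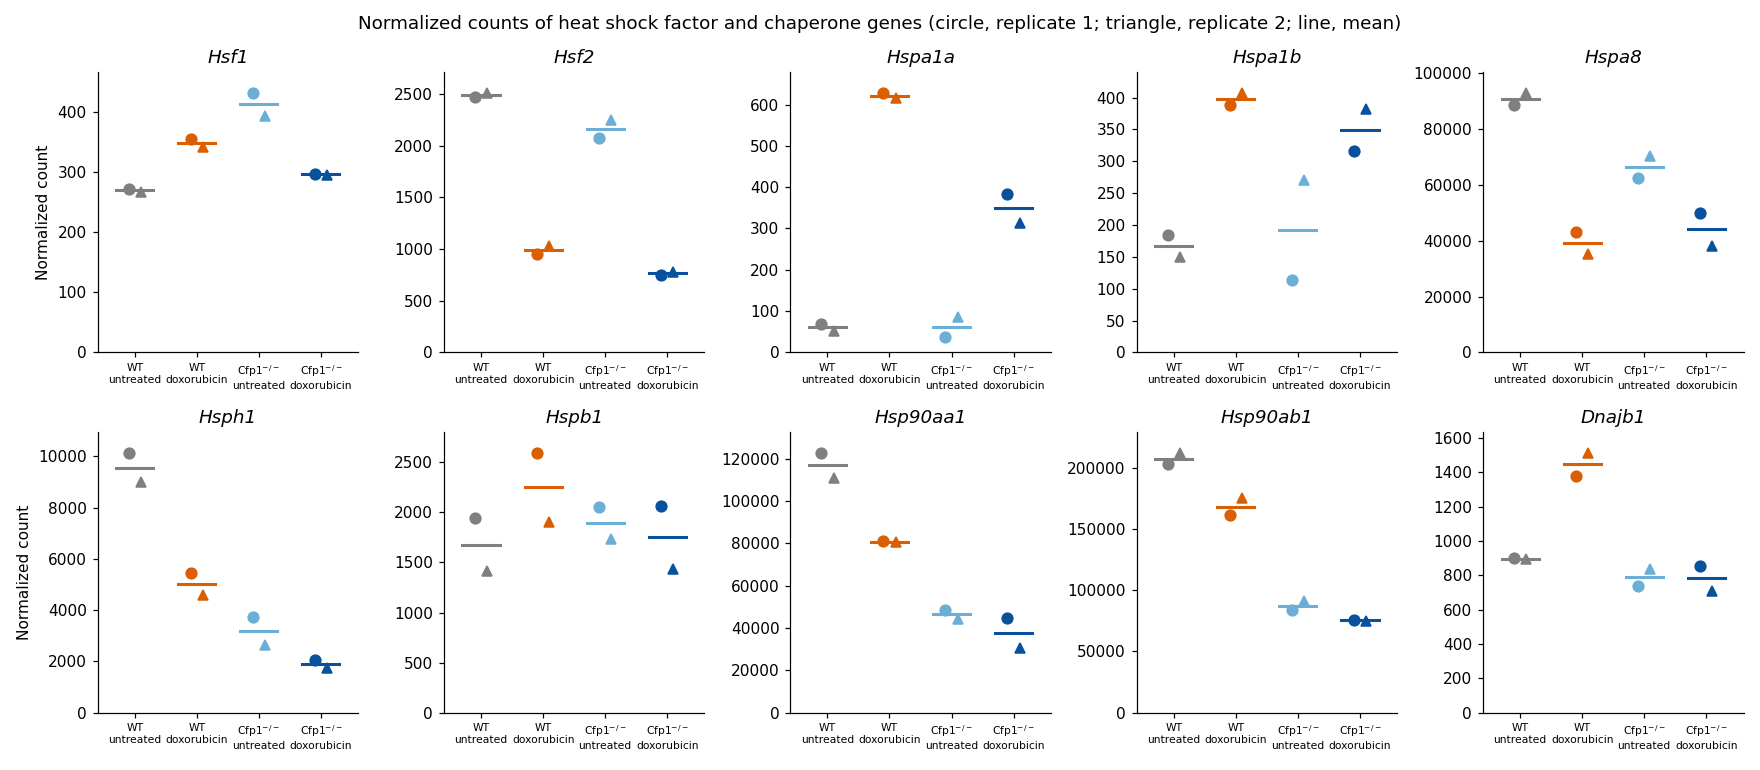
Normalized counts of the 10 genes (vertical axes, each from 0) in the 4 groups, with a circle for replicate 1, a triangle for replicate 2 and a line for the mean of both. Treated libraries lie above untreated ones for Hspa1a in both lines (314 or more against 86.2 or fewer) and below them for Hsf2 (1025 or fewer against 2073 or more).

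The factors come first. Hsf1 (ENSMUSG00000022556, chr15:76307865-76331402 on the plus strand of NCBIm37) codes for the main activator of the heat shock response, a protein that is held inactive in unstressed cells and is controlled mostly after translation. Its normalized counts were 272 and 267 in untreated WT cells, 355 and 341 in treated WT cells, 432 and 393 in untreated mutant cells, and 297 and 295 in treated mutant cells. Treated libraries were above untreated ones in WT cells and below them in the mutant, with no overlap in either line. The log2 fold change with doxorubicin was 0.42 ± 0.17 (SE) in WT cells (adjusted p = 0.0725) and -0.44 ± 0.17 in mutant cells (adjusted p = 0.059), neither of which passed the test. The response difference of -0.85 ± 0.24 was among the 3 that passed without adjustment but had an adjusted p of 0.257.

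In WT cells the Hsf1 response passed the test with the first technical replicates alone (0.46, adjusted p = 0.0499) and with total count scaling (0.73, adjusted p = 0.00655), within a range of 0.00655 to 0.218 over 16 alternatives. In mutant cells it passed with DESeq2's Wald test, DESeq2's size factors and the replicate block, with adjusted p between 0.0399 and 0.323 over all alternatives. Between untreated lines Hsf1 was 1.56-fold higher in the mutant, with a log2 fold change of 0.64 ± 0.17 and an adjusted p of 0.0175. That call was lost without replicate 1 of untreated mutant cells (0.59, adjusted p = 0.0891), without replicate 1 of untreated WT cells (0.67, adjusted p = 0.0637) and without its replicate 2 (0.62, adjusted p = 0.0859). With doxorubicin the difference between the lines was -0.21 ± 0.17 and did not pass the test (adjusted p = 0.404).

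Hsf2 (ENSMUSG00000019878, chr10:57206191-57232939 on the plus strand) codes for a related factor that is known from development and spermatogenesis and can pair with HSF1. It had 2466 and 2512 normalized counts in untreated WT cells against 948 and 1025 in treated ones. Mutant cells had 2073 and 2252 untreated against 749 and 778 treated. All 4 treated libraries were below all 4 untreated ones. With doxorubicin Hsf2 fell by 1.29 ± 0.12 on the log2 scale in WT cells, a 2.44-fold change with an adjusted p of 4.08e-05. It fell by 1.46 ± 0.13 in mutant cells, a 2.75-fold change with an adjusted p of 2.44e-05, and was the only member lower by the study's rule there. Between the responses the difference was -0.17 ± 0.17 (95% interval -0.56 to 0.22, adjusted p = 0.785).

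Between the lines Hsf2 had a log2 fold change of -0.17 ± 0.12 in untreated cells (adjusted p = 0.292), of which the sign turned with total count scaling (0.02), and of -0.35 ± 0.12 in treated cells (adjusted p = 0.0682). The latter passed the test with the first technical replicates alone (adjusted p = 0.0392), with the replicate block (0.041) and without the second runs of both treated replicates 1 (0.0446), in a range up to 0.239 over the alternatives. The ratio of Hsf2 to Hsf1 in normalized counts was 9.07 and 9.41 in untreated WT cells, 2.67 and 3 in treated WT cells, 4.8 and 5.73 in untreated mutant cells, and 2.52 and 2.64 in treated mutant cells. This ratio was lower in every treated library than in every untreated one, and among untreated cells it was lower in the mutant.

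The 2 stress-inducible Hsp70 genes lie close together on chromosome 17. Hspa1a (ENSMUSG00000091971, chr17:35106144-35109069 on the minus strand) and Hspa1b (ENSMUSG00000090877, chr17:35093381-35096183 on the minus strand) code for almost the same protein, the Hsp70 that is made under stress and refolds damaged proteins. Their coding sequences are 1926 and 1929 bases long and identical at 1918 of 1929 aligned positions (99.4%). Of all 75-base windows in the exon of Hspa1a, the length of 1 read, 54.8% occur elsewhere in the genome, 1518 of 2852 of them in Hspa1b. For Hspa1b the share is 55.8%. The methods call the counted reads unambiguous, but how reads with several matches in the genome were treated is not given in the sources used here. Counts of each gene are thus uncertain as to which of both copies a read came from and may lack shared reads. Their sum is given as well, which settles only the former.

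Hspa1a had 69.7 and 52.1 normalized counts in untreated WT cells and 629 and 615 in treated WT cells. Mutant cells had 36.2 and 86.2 untreated and 383 and 314 treated. Every treated library was far above every untreated one, and the treated mutant libraries were below the treated WT ones. The untreated libraries rested on few reads, between 39 and 102 raw counts. With doxorubicin Hspa1a rose 10.5-fold in WT cells (log2 fold change 3.39 ± 0.36, adjusted p = 6.33e-05) and 5.84-fold in mutant cells (2.55 ± 0.35, adjusted p = 0.000319), and it was the only member higher by the study's rule in both lines. The mutant log2 fold change was 2.05 without replicate 1 and 3.29 without replicate 2 of untreated mutant cells. The response difference of -0.84 ± 0.48 had a 95% interval of -1.92 to 0.23 and an adjusted p of 0.579. Its value ranged from -1.34 to -0.09 when 1 library was left out.

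Untreated, the lines had overlapping Hspa1a counts (log2 fold change 0.03 ± 0.36, adjusted p = 0.955). With doxorubicin they did not overlap, and the log2 fold change of -0.81 ± 0.32 had an adjusted p of 0.0876. Under 6 of 16 alternatives that difference passed the test, among them DESeq2's Wald test (adjusted p = 0.0483), the replicate block (0.0397), no filter on low counts (0.0444) and the fit of the treated groups alone (0.0162), while the highest adjusted p was 0.333.

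Hspa1b had 184 and 150 normalized counts in untreated WT cells, 388 and 408 in treated WT cells, 114 and 270 in untreated mutant cells, and 317 and 383 in treated mutant cells. Treated libraries were above untreated ones in each line, and the untreated mutant replicates were more than 2-fold apart. It rose 2.45-fold in WT cells (log2 fold change 1.29 ± 0.34, adjusted p = 0.0114), a call lost without replicate 2 of untreated WT cells (1.14, adjusted p = 0.0621). The mutant rise was 1.87-fold (0.90 ± 0.34, adjusted p = 0.0492), just inside the threshold. The call in the mutant was lost under 11 of 16 alternatives, with adjusted p up to 0.244, among them the fit without the second runs of both treated replicates 1 (0.88, adjusted p = 0.0604). Its log2 fold change was 0.41 without replicate 1 and 1.64 without replicate 2 of untreated mutant cells. The response difference was -0.39 ± 0.48 (adjusted p = 0.832), and the lines did not differ by the test untreated (0.23 ± 0.34, adjusted p = 0.634) or treated (-0.16 ± 0.33, adjusted p = 0.751).

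Untreated mutant replicate 2 was above replicate 1 for Hspa1a and Hspa1b alike, in each case more than 2-fold. The ratio of Hspa1a to Hspa1b in normalized counts was 0.378 and 0.347 in untreated WT cells and 0.317 and 0.319 in untreated mutant cells, so that Hspa1b had the higher count in all untreated libraries. With doxorubicin the ratio was 1.62 and 1.51 in WT cells and 1.21 and 0.821 in mutant cells. Treated ratios were above untreated ones in both lines. Summed, both genes had 254 and 202 normalized counts in untreated WT cells, 1017 and 1022 in treated WT cells, 150 and 357 in untreated mutant cells, and 700 and 697 in treated mutant cells.

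Hspa8 (ENSMUSG00000015656, chr9:40609067-40613283 on the plus strand) codes for Hsc70, the constitutive Hsp70 that folds newly made proteins and strips clathrin from vesicles. It had 88660 and 93060 normalized counts in untreated WT cells and 43210 and 35270 in treated WT cells. The mutant had 62550 and 70400 untreated and 50020 and 38190 treated. All treated libraries were below all untreated ones, and the treated lines overlapped. With doxorubicin Hspa8 fell by 1.17 ± 0.17 on the log2 scale in WT cells, a 2.24-fold change with an adjusted p of 0.00042. For mutant cells, it fell by 0.55 ± 0.17, a 1.46-fold change with an adjusted p of 0.0218. The mutant call was lost without replicate 2 of treated mutant cells (-0.36, adjusted p = 0.141), without replicate 2 of untreated mutant cells (-0.48, adjusted p = 0.105) and with total count scaling (-0.34, adjusted p = 0.116).

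For Hspa8 the response difference was 0.62 ± 0.24, which passed only without adjustment (adjusted p = 0.405). Untreated mutant cells had less Hspa8 than WT cells without overlap (log2 fold change -0.42 ± 0.17), which did not pass the test (adjusted p = 0.0766) but did under 7 of 16 alternatives, among them the replicate block (adjusted p = 0.0349) and the fit without the second runs of both treated replicates 1, with adjusted p from 0.034 to 0.312. Treated cells had a log2 fold change of 0.19 ± 0.17 between the lines (adjusted p = 0.42). In normalized counts, not corrected for exon length, Hspa8 exceeded the sum of Hspa1a and Hspa1b 349-fold and 460-fold in untreated WT cells, 42.5-fold and 34.5-fold in treated WT cells, 416-fold and 197-fold in untreated mutant cells, and 71.5-fold and 54.8-fold in treated mutant cells. Of its 75-base exon windows 30.5% occur elsewhere in the genome, most of them in the pseudogenes Gm15459 (28.4%) and Gm8355 (13.5%), neither of which is in the count table.

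Hsph1 (ENSMUSG00000029657, chr5:150416862-150438951 on the minus strand) codes for Hsp110, which frees Hsp70 of ADP and so drives its cycle. It had 10140 and 8993 normalized counts in untreated WT cells, 5441 and 4579 in treated WT cells, 3735 and 2648 in untreated mutant cells, and 2056 and 1745 in treated mutant cells. The 4 groups did not overlap, and stood in this order from high to low. With doxorubicin Hsph1 fell by 0.89 ± 0.18 on the log2 scale in WT cells (1.85-fold, adjusted p = 0.0033) and by 0.71 ± 0.19 in mutant cells (1.63-fold, adjusted p = 0.0108). The call in the mutant was lost without replicate 2 of treated mutant cells (-0.59, adjusted p = 0.0858) and without replicate 1 of untreated mutant cells (-0.44, adjusted p = 0.0785). Between both responses the difference was 0.18 ± 0.26 (95% interval -0.40 to 0.76, adjusted p = 0.862).

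Between the lines Hsph1 differed most of the 10 genes. It was 2.94-fold lower in untreated mutant cells (log2 fold change -1.55 ± 0.19, adjusted p = 0.000443) and 2.59-fold lower in treated ones (-1.37 ± 0.19, adjusted p = 0.00133). Both calls held under all 16 alternatives, with log2 fold changes between -1.81 and -1.32 untreated and between -1.51 and -1.25 treated. No 75-base exon window of Hsph1 recurred elsewhere in the genome.

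Hspb1 (ENSMUSG00000004951, chr5:136363789-136365433 on the plus strand) codes for Hsp25, the mouse form of the small heat shock protein Hsp27, which holds unfolded proteins in large oligomers without using ATP. It had 1941 and 1413 normalized counts in untreated WT cells, 2594 and 1903 in treated WT cells, 2056 and 1732 in untreated mutant cells, and 2064 and 1437 in treated mutant cells. The groups overlapped in all 4 comparisons, and in every group replicate 1 was above replicate 2. The log2 fold change with doxorubicin was 0.47 ± 0.23 in WT cells (95% interval -0.05 to 0.98, adjusted p = 0.121) and -0.07 ± 0.23 in mutant cells (-0.59 to 0.44, adjusted p = 0.821), the latter with the other sign under total count scaling (0.14). With the replicate block the WT value was 0.47 with an adjusted p of 0.00567, and with total count scaling 0.78 with an adjusted p of 0.0167, in a range up to 0.535. Without 1 library it lay between 0.22 and 0.72. The response difference was -0.54 ± 0.33 (adjusted p = 0.605). Between the lines the values were 0.20 ± 0.23 untreated (adjusted p = 0.519) and -0.33 ± 0.23 treated (adjusted p = 0.312), which passed the test with the replicate block only (-0.34, adjusted p = 0.0436) and lay between -0.64 and -0.09 without 1 library. Of its 75-base exon windows 47% occur elsewhere in the genome, chiefly on chromosome 13 at the pseudogene Hsp25-ps1.

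Hsp90aa1 (ENSMUSG00000021270, chr12:111928815-111940938 on the minus strand) codes for Hsp90α, the stress-inducible cytosolic Hsp90, which completes the folding of kinases and steroid receptors. It had 122700 and 110800 normalized counts in untreated WT cells and 80950 and 80530 in treated WT cells. Its mutant counts were 48710 and 44110 untreated and 44550 and 30330 treated. The WT groups did not overlap, the mutant groups did, and all mutant libraries were below all WT libraries. With doxorubicin it fell by 0.49 ± 0.18 on the log2 scale in WT cells, with an adjusted p of 0.0494, and the value in mutant cells was -0.27 ± 0.18 (adjusted p = 0.253). The WT call was lost under 7 of 16 alternatives: with total count scaling (-0.17, adjusted p = 0.432), without either untreated WT replicate (-0.41 and -0.57, adjusted p = 0.185 and 0.0715), without either treated WT replicate (both -0.49, adjusted p = 0.127 and 0.126), and without either untreated mutant replicate (-0.48 and -0.49, adjusted p = 0.0593 and 0.0615). The mutant value was -0.59 (adjusted p = 0.0175) without replicate 1 of treated mutant cells and -0.01 (adjusted p = 0.963) without its replicate 2. For the response difference the value was 0.22 ± 0.26 (adjusted p = 0.82).

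Untreated mutant cells had 2.47-fold less Hsp90aa1 than WT cells (log2 fold change -1.30 ± 0.18, adjusted p = 0.000944), and treated ones had 2.12-fold less (-1.08 ± 0.18, adjusted p = 0.00338). Both calls held under all 16 alternatives, between -1.38 and -1.11 untreated and between -1.40 and -0.82 treated. Of its 75-base exon windows 49.8% occur elsewhere in the genome, among them 42.8% within Ssh2 but outside its exons, 29.4% in the pseudogene Gm12346 that lies there, and 20.5% in the pseudogene Gm5844.

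Hsp90ab1 (ENSMUSG00000023944, chr17:45704724-45710220 on the minus strand) codes for Hsp90β, the constitutive partner of Hsp90α, and is needed for early development of the mouse. It had 202700 and 212000 normalized counts in untreated WT cells and 161100 and 175200 in treated WT cells. The mutant counts were 83870 and 90930 untreated and 75900 and 75070 treated. Treated libraries were below untreated ones in each line, and mutant libraries were far below WT ones at either treatment. The log2 fold change with doxorubicin was -0.26 ± 0.13 in WT cells (adjusted p = 0.12) and -0.17 ± 0.13 in mutant cells (adjusted p = 0.297), neither past the threshold. The sign of both values turned with total count scaling, to 0.06 and 0.05, and DESeq2's Wald test called the WT value (-0.30, adjusted p = 0.0484, in a range up to 0.729). The response difference was 0.09 ± 0.18 (95% interval -0.31 to 0.49, adjusted p = 0.912), and -0.01 with total count scaling.

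Hsp90ab1 was 2.33-fold lower in untreated mutant cells (log2 fold change -1.22 ± 0.13, adjusted p = 0.000229) and 2.19-fold lower in treated ones (-1.13 ± 0.13, adjusted p = 0.000618). Both calls held under all 16 alternatives, between -1.27 and -1.03 untreated and between -1.20 and -1.04 treated. Hsp90ab1 took 0.811% and 0.842% of all counts in untreated WT cells and 0.387% and 0.425% in untreated mutant cells, more than any other gene in each of these libraries. Only 1.11% of its 75-base exon windows occur elsewhere in the genome. The ratio of Hsp90aa1 to Hsp90ab1 in normalized counts was 0.605 and 0.523 in untreated WT cells, 0.503 and 0.46 in treated WT cells, 0.581 and 0.485 in untreated mutant cells, and 0.587 and 0.404 in treated mutant cells. These ratios overlapped between the lines at either treatment.

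Dnajb1 (ENSMUSG00000005483, chr8:86132074-86135801 on the plus strand) codes for Hsp40, a J-protein that delivers unfolded proteins to Hsp70 and starts its ATP cycle. It had 900 and 893 normalized counts in untreated WT cells, 1382 and 1514 in treated WT cells, 741 and 838 in untreated mutant cells, and 856 and 711 in treated mutant cells. The treated WT libraries stood above all others, and the mutant groups overlapped. With doxorubicin Dnajb1 rose 1.67-fold in WT cells (log2 fold change 0.74 ± 0.15, adjusted p = 0.00297), a call that held under all 16 alternatives with values from 0.66 to 1.05. In mutant cells the value was 0.03 ± 0.15 (95% interval -0.30 to 0.37, adjusted p = 0.875), with either sign among the alternatives. The response difference of -0.70 ± 0.21 passed only without adjustment (adjusted p = 0.279), so the lines were not shown to respond differently.

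Untreated lines had a Dnajb1 log2 fold change of -0.16 ± 0.15 (adjusted p = 0.445), of which the sign turned with total count scaling (0.04). With doxorubicin mutant cells had 1.82-fold less Dnajb1 (log2 fold change -0.86 ± 0.15, adjusted p = 0.0039), under all 16 alternatives between -1.02 and -0.73. No 75-base exon window of Dnajb1, Hsf1 or Hsf2 recurred elsewhere in the genome.

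**Figure D3:**
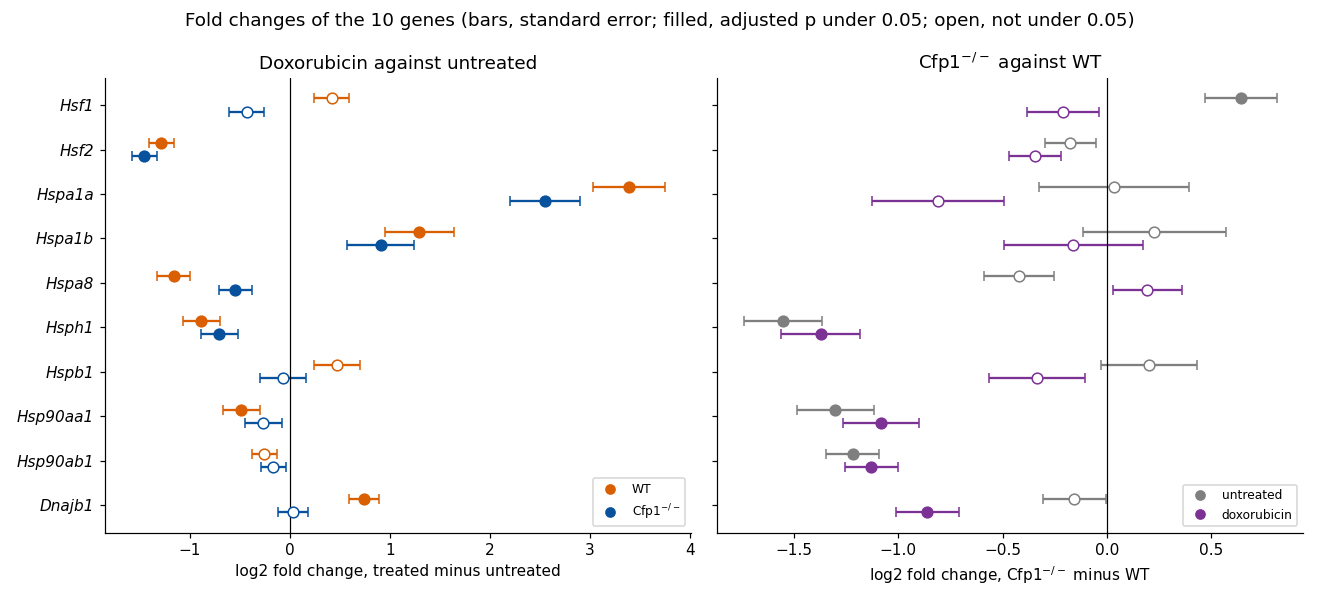
Log2 fold changes of the 10 genes with doxorubicin in WT and Cfp1 -/- cells (left) and in Cfp1 -/- against WT cells at each treatment (right), with standard errors as bars and filled points where the adjusted p was under 0.05. Hspa1a (3.39 and 2.55) and Hsf2 (-1.29 and -1.46) have the highest and lowest responses in both lines, and Hsph1, Hsp90aa1 and Hsp90ab1 are lower in the mutant at both treatments.

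Scaling moved all values of a comparison together, though not every comparison in the same direction. Compared with the trimmed mean of M values, total count scaling shifted the median log2 fold change over all genes. The shift was 0.31 in the WT response, 0.21 in the mutant response, 0.19 between untreated lines and 0.09 between treated lines. For the response difference it was -0.10. The split of called genes in WT cells was then 5731 higher and 1836 lower, against 4174 and 3433, and in mutant cells 5271 and 2057, against 4386 and 3306. Between untreated lines it was 3849 and 1610, against 2825 and 2537. Between treated lines it was 2824 and 1255, against 2374 and 1700, and for the response difference 11 and 24, against 18 and 19. With DESeq2's size factors the largest shift of a median was -0.04, in the WT response. No called member changed its direction under any alternative.

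Genes with the most similar pattern were sought among the 9499 tested genes averaging 200 normalized counts or more, by the root mean square difference of centred log2 normalized counts over the 8 libraries. Hspa1a was closest to Acer2 (0.31), Trafd1 (0.38) and E330020D12Rik (0.39), which is a loose likeness. Hspa1b was closest to Cltb (0.24), Sept3 (0.25) and Tmem48 (0.27), and Hsph1 to Arl4a, Phf17 and Whsc1 (all 0.22). Hspa8 was within 0.05 of Wdr12, and next came Vapa (0.10) and Ppp1cb (0.12). Hsp90ab1 was closest to the ribosomal protein genes Rpl10 (0.07) and Rps9 (0.07), then to Zfp386 (0.10). The list for Hsp90aa1 was Slain2 (0.08), Btbd7 (0.10) and the mitochondrial chaperonin gene Hspd1 (0.14). Hsf1 was closest to Rnf216, Relb and Fntb (0.10 to 0.11), and genes close to Hsf2 included Taf5l and Abcg2 (both 0.10). For Hspb1 these were Znrf1, Zfp219 and Pcif1 (0.12 to 0.14), and for Dnajb1 Plod3, Pnpla6 and Dpys (0.10 to 0.12).

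Other genes of chaperone biology were described by lists. Of 134 such genes 133 were found and 128 tested. In WT cells 19 of the 128 were higher and 56 lower with doxorubicin, with a median log2 fold change of -0.35, and in mutant cells 19 were higher and 48 lower, with a median of -0.28. Over all genes tested 26.5% were higher and 21.8% lower in WT cells (median 0.06), and 27.8% and 21% in mutant cells (median 0.01). These shares are the background of every list count below. The response difference called 0 of them. Between the lines 17 were higher and 29 lower in untreated mutant cells (median -0.15), and 13 were higher and 21 lower in treated ones (median -0.12). The shares over all genes were 17.9% and 16.1% untreated and 15.1% and 10.8% treated.

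Among 5 tested heat shock factors and regulators, 2 were higher with doxorubicin in each line and 0 lower (medians 0.79 and 0.65). Hsbp1, which codes for a small protein that binds the trimer domain of HSF1, rose 2.01-fold in WT cells, from 1612 and 1544 to 2584 and 3553 normalized counts. Of 20 other heat-inducible HSF1 targets, 6 were higher and 7 lower in WT cells (median -0.14), and 3 were higher and 7 lower in mutant cells (median -0.15). Dnajb4, a J-protein gene, rose 2.74-fold in WT cells (log2 fold change 1.45 ± 0.22) and by 1.29 ± 0.22 on the log2 scale in the mutant. Hspb8, a small heat shock protein gene of the autophagy pathway, went from 332 and 326 to 726 and 822 normalized counts in WT cells and from 469 and 497 to 614 and 516 in mutant cells. Its response was 1.28 ± 0.17 in WT cells (adjusted p = 0.000239) and 0.27 ± 0.17 in mutant cells (adjusted p = 0.208), with a response difference of -1.01 ± 0.23 (adjusted p = 0.163). Chordc1 and Cacybp, which code for partners of Hsp90, fell by 1.02 ± 0.12 and 1.27 ± 0.16 in WT cells.

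In the other Hsp70 and Hsp110 family, 2 of 11 genes were higher and 6 lower in each line (medians -0.53 and -0.54). The higher ones were Hspa2, known from spermatogenesis, and Hspa12a. Hspa2 had 269 and 199 normalized counts in untreated and 1099 and 1442 in treated WT cells, a 5.59-fold rise (log2 fold change 2.48 ± 0.20, adjusted p = 1.77e-05). In mutant cells it had 200.2 and 209 untreated and 883 and 897 treated, so that treated libraries were above untreated ones in both lines as for Hspa1a. Hspa12a rose 3.57-fold in WT cells. Hspa5, which codes for BiP of the endoplasmic reticulum, fell 2.70-fold in WT cells, from 31440 and 31210 to 10530 and 11920 normalized counts, and Hspa4, an Hsp110 gene, fell 1.87-fold.

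The list counts that follow stand beside 26.5% of all genes higher and 21.8% lower in WT cells and 27.8% and 21% in mutant cells. Of 40 J-domain protein genes, 6 were higher and 17 lower in WT cells (median -0.32), and 8 were higher and 17 lower in mutant cells (median -0.30). Among those averaging 200 normalized counts or more in WT cells, Dnajb5 (4.38-fold) and Dnajc9 (3.11-fold), a histone-binding J-protein gene, rose most, while Dnajc21 (2.86-fold) and Dnajb14 (2.44-fold) fell most. Of 6 small heat shock protein genes 3 were higher and 0 lower in each line (medians 1.26 and 1.31). These were Hspb8, Hspb2 and Cryab in WT cells and Cryaa, Hspb2 and Cryab in mutant cells, of which Hspb2, Cryab and Cryaa are named after their values were seen. Only Hspb8 was well expressed (mean 538 normalized counts), while Cryab had 73.6, Hspb2 14.9 and Cryaa 4.26, so the medians rest on genes with few counts. Of 20 Hsp90 paralogs and cochaperones 0 were higher and 14 lower in WT cells (median -0.46), and 1 was higher and 12 lower in mutant cells (median -0.59). Sugt1, a cochaperone of Hsp90, fell 2.25-fold in WT cells.

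Of 11 genes listed as nucleotide exchange factors or cochaperones of Hsp70, 1 was higher and 2 lower in each line (medians -0.06 and -0.07). In WT cells these were Bag4 (1.26-fold higher), St13 (1.40-fold lower) and Sil1 (1.70-fold lower). Of 14 genes of the chaperonin CCT and prefoldin, which fold actin and tubulin, 1 was higher and 10 lower in WT cells (median -0.55), and 0 were higher and 7 lower in mutant cells (median -0.42). Cct3 fell 2.15-fold and Tcp1 1.91-fold in WT cells. Of 12 mitochondrial chaperones and proteases 1 was higher and 4 lower in WT cells (median -0.26), and 2 were higher and 2 lower in mutant cells (median -0.23), with Clpb 1.65-fold higher, Hspa9 1.78-fold lower and Clpx 1.81-fold lower in WT cells. Of 16 endoplasmic reticulum chaperones 0 were higher and 10 lower in WT cells (median -0.77), and 0 were higher and 7 lower in mutant cells (median -0.51). Pdia4, a disulphide isomerase gene, fell 2.83-fold in WT cells, from 7514 and 7720 to 2392 and 2814 normalized counts.

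Between the lines the same lists went both ways, beside 17.9% of all genes higher and 16.1% lower in untreated mutant cells and 15.1% and 10.8% in treated ones. For the Hsp90 paralogs and cochaperones 1 gene was higher and 7 lower untreated (median -0.27), and 0 were higher and 6 lower treated (median -0.28). The HSF1 targets had 4 higher and 6 lower untreated (median -0.21) and 3 and 5 treated (median -0.37), and the J-domain proteins 4 and 6 (median -0.09) and 3 and 4 (median -0.12). In the other Hsp70 and Hsp110 family 1 was higher and 3 lower untreated (median -0.17), and 3 were higher and 1 lower treated (median -0.24). The chaperonin and prefoldin genes had 2 higher and 5 lower untreated (median -0.35) and 2 and 3 treated (median -0.13). In the list of nucleotide exchange factors and cochaperones of Hsp70, 2 were higher and 3 lower untreated (median -0.38), and 1 was higher and 2 lower treated (median -0.17). Of the endoplasmic reticulum chaperones 1 was higher and 3 lower untreated (median -0.09), and 2 were higher and 0 lower treated (median 0.27). The mitochondrial list had 2 higher and 3 lower at each treatment (medians -0.11 and 0.03). Heat shock factors and regulators had 1 higher and 2 lower untreated (median 0.005) and 0 and 1 treated (median -0.35), and small heat shock proteins 1 and 0 (median -0.10) and 0 and 1 (median 0.44).

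Promoter sequences were taken from RefSeq, as windows from 250 bases before to 50 bases after the start of transcription in build GRCm38.p6, a different build from that of the count table. The set used here held 8 windows for 6 of the 10 genes, Hsf2, Hspa1a, Hspa1b, Hsph1, Hspb1 and Dnajb1. The set of windows used here holds none for Hsf1, Hspa8, Hsp90aa1 and Hsp90ab1. Both strands were searched for the 3-unit heat shock element, GAANNTTCNNGAA or TTCNNGAANNTTC, and for the 2-unit form GAANNTTC or TTCNNGAA, of which each 3-unit match holds 2. Of 32851 windows in all, 0.603% held a 3-unit match and 15.1% a 2-unit match. Among the members the 3-unit form was found in Hsph1 only, and the 2-unit form in 4 of 6 genes. The windows of Hsf2 and Dnajb1 held neither form, which says only that these letters are not there.

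The windows of Hspa1a and Hspa1b, the members with the highest responses to doxorubicin, are identical at 296 of 300 positions and are shown together for that reason, with the 2-unit match that starts 104 bases before the start of transcription in capitals. They lie at chr17:34972107-34972406 (Hspa1a) and chr17:34959189-34959488 (Hspa1b) of GRCm38.p6, both on the minus strand, and read 5′ to 3′ as follows.
Hspa1a: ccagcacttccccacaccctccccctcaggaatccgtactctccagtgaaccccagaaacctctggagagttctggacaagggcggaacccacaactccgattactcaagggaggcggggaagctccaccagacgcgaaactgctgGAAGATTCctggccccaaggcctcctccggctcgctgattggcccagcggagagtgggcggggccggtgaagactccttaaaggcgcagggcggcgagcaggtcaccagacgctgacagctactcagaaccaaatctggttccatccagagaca
Hspa1b: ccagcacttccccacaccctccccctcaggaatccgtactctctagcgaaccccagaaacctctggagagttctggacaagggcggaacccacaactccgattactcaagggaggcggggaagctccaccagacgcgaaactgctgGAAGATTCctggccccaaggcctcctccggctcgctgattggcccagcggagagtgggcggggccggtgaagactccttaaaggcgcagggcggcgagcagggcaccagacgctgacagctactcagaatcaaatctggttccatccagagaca
The window of Hsph1, the member that differed most between the lines, lies at chr5:149636287-149636586 on the minus strand of GRCm38.p6. Its capitals mark a 2-unit match that starts 33 bases before the start of transcription and a 3-unit match that starts at base 37 after it. A second RefSeq window that overlaps this one holds the same matches, with the 3-unit match at base 16 after its start.
Hsph1: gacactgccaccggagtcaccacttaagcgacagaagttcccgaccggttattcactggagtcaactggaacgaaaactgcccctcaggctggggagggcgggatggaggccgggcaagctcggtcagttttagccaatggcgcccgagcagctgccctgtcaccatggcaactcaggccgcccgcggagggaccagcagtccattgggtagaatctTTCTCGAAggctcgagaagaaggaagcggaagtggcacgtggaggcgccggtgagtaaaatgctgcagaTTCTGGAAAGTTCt
The window of Hspb1, which was called in no comparison without the replicate block or total count scaling, is shown beside them, since it holds 2 separate 2-unit matches, 117 and 97 bases before the start. It lies at chr5:135887669-135887968 on the plus strand of GRCm38.p6.
Hspb1: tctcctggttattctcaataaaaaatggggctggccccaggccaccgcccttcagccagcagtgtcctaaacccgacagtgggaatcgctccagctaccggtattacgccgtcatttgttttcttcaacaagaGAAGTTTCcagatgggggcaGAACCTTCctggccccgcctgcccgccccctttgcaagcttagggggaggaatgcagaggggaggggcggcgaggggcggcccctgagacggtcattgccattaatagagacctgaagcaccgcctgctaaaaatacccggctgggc
A match of letters is a description and does not show that a factor binds there.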

How the data were processed

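The authors sequenced paired-end 75-base reads from strand-specific ScriptSeq libraries of total RNA depleted of ribosomal RNA. The authors aligned them to NCBIm37 with STAR (version 2.2.1 in the processing notes, another version string in the methods) and deposited raw counts per gene and technical replicate, made with HTSeq-count in stranded union mode on exons of Ensembl release 67. The deposited normalized signal is the sum of both technical counts divided by 1 DESeq size factor per biological replicate. The methods describe the counted reads as unambiguous. Whether that covers reads mapping to several places in the genome is not given in the sources used here.

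Here technical replicates were summed, which left 8 libraries, 2 per group. Of 22375 genes, 15758 passed filterByExpr and were fitted with edgeR 4.0.16 in R 4.3.3 (TMM normalization, 1 coefficient per group, glmQLFit, glmQLFTest, Benjamini-Hochberg adjustment over the genes tested). The common dispersion was 0.0304 with 5.62 prior and 4 residual degrees of freedom. Tested were 5 contrasts: doxorubicin against no treatment in each line, the response difference, and Cfp1 -/- against WT at each treatment. A gene was called at an adjusted p under 0.05. Each standard error is the log2 fold change over the root of its F statistic, and levels are the deposited normalized counts. Depth per library, from 14880589 to 29422711 counts, put genes with 3 counts or fewer in a library at the floor. The code was tested on simulated counts.

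Alternatives were scaling by total counts or by DESeq2's size factors, the Wald test of DESeq2 1.42.0, keeping genes of low counts, a replicate block built from the replicate numbers, fits on the 2 groups compared alone, first technical replicates alone and each of the 8 libraries left out in turn. A further alternative, without the second runs of both treated replicates 1, was chosen after seeing the data.

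The members and lists were chosen with earlier results of these data known. All 10 members are described. From each list of other chaperone genes, those named are the 2 with the highest and the 2 with the lowest log2 fold change in WT cells, among called genes averaging 200 normalized counts or more in WT libraries, and any gene with a called response difference. Exon lengths came from Ensembl release 65 (GENCODE vM1), where 22324 of the 22375 identifiers were found, and repeated 75-base windows were sought in the NCBIm37 genome with Python 3.11.15. The symbols Pfdn6, Tfcp2l1, Tfap2c and Sox1 were not matched and are not analysed here.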

Additional observations from a re-analysis of the deposited data

How the results depend on the processing

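Over 16 alternatives, no called value of a member changed direction. Of 320 alternative values for the 20 called results, 293 stayed called, 27 no longer passed the threshold and 0 reversed, and 14 results were called throughout. For the 30 results not called, 420 of 470 alternative values stayed so, 26 passed the threshold and 24 had the other sign. The cause of these changes was not tested. With 2 libraries per group the spread leans on all genes, and with 1 left out the lone library is assumed to vary like the other groups. Low counts limit Hspa1a in untreated cells.

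With total count scaling 5 members were higher in treated WT cells. That scaling gave Hsp90ab1 0.06 in the WT response, 0.05 in the mutant response and -0.01 for the response difference, Hspb1 0.14 in the mutant response, and Hsf2 0.02 and Dnajb1 0.04 between untreated lines. Over all genes it split the called genes into 5731 higher and 1836 lower in WT cells, 5271 and 2057 in mutant cells, and 3849 and 1610 between untreated lines. The split was 2824 and 1255 between treated lines and 11 and 24 for the response difference. The mutant response of Dnajb1 was -0.01 with DESeq2's size factors, -0.01 with DESeq2's Wald test, -0.02 with the first technical replicates alone and -0.06 without the second runs of both treated replicates 1. Members higher in treated mutant cells numbered 1 with DESeq2's size factors, where 4254 of all genes were higher and 3575 lower. They also numbered 1 with the first technical replicates alone, with the 2 groups compared alone and without the second runs. Called genes were not split by direction under these last settings, so their member counts have no like share beside them. The response difference was called for 221 genes with DESeq2's Wald test and for 133 with no filter on low counts.

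With the replicate block, the response difference was called for 243 genes and 0 members, and 7 members were lower in treated mutant than in treated WT cells. Genes called there in either direction numbered 5795, against 4074 without the block, and were not split by direction. Deviations of libraries with the same number correlated at 0.159 to 0.542 between groups, so they deviated together. The labels do not say what a number stands for, and there are only 2 numbers, so the fit without the block was kept.

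Without 1 library, members higher in treated mutant cells ranged from 1 to 2 and members lower from 1 to 4, beside 5232 to 7984 of all genes called there. The response difference was called for 0 to 13 genes. Genes called between the lines ranged from 3075 to 5624 untreated, with 0 to 1 members higher, and from 1822 to 4110 with doxorubicin. Among values whose sign turned, the mutant response ranged from -0.38 to 0.17 for Hspb1 and from -0.13 to 0.17 for Dnajb1. The response difference ranged from -0.89 to 0.35 for Hspa1b, from -0.06 to 0.44 for Hsph1 and from -0.10 to 0.48 for Hsp90aa1. Between untreated lines the range was -0.72 to 0.54 for Hspa1a, -0.52 to 0.74 for Hspa1b and -0.01 to 0.46 for Hspb1, and between treated lines -0.03 to 0.38 for Hspa8.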
